A study of Mus musculus with 27 samples.

Results

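RNA of the 9 genes that set the 3 kinds of mammalian SWI/SNF complex apart was followed across 27 sequencing libraries from mouse thyroid. The genes were Arid1a, Arid1b, Dpf2 and Ss18 for BAF, Arid2, Pbrm1, Brd7 and Phf10 for PBAF, and Brd9 for ncBAF. They were taken by symbol, 9 of the 33924 symbols in the deposited count table, and the rule used no measured value. The 9 were nevertheless chosen with earlier results of these data known. All 9 passed the filter on low counts.

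The libraries form 9 groups of 3. In 8 groups they came from 12 thyroid tumor cell lines that all carry Braf V600E, an activating mutation of the Braf kinase. Per the labels, 3 lines carry Braf V600E alone (Braf), 3 carry it with Arid1a KO, 3 with Arid2 KO and 3 with Smarcb1 KO, where KO is knockout. Each line gave a vehicle library and a library from cells kept for 8 days in 300 nM CKI (CH5126766), a drug that blocks the RAF and MEK kinases. The last group holds 3 libraries with the genotype label wildtype and no treatment. Their source label nevertheless names a tumor cell line. Each tumor line was grown from a dissected tumor, so a line is a replicate and tests rest on the spread between lines. The age of the animals, the driver of the Braf and knockout alleles, and which exons were deleted are not stated in the labels. The wording on bovine TSH, the hormone that stimulates thyroid cells, does not settle whether the vehicle cultures received it.

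SWI/SNF complexes use ATP to move or evict nucleosomes and so open chromatin at enhancers and promoters. All are built around an ATPase, Smarca4 or Smarca2, and a shared set of core subunits. BAF takes up Arid1a or its paralog Arid1b, which exclude each other, together with Dpf2 and Ss18. PBAF takes up Arid2, Pbrm1, Brd7 and Phf10. The ncBAF complex holds Brd9 and no ARID subunit, shares Ss18 with BAF, and lacks Smarcb1, a core subunit of the other 2 complexes. Subunits of these complexes are recurrently mutated in aggressive thyroid cancer.

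Values are CPM, a gene's counts per 1000000 counts of its library, with totals adjusted by edgeR's TMM factors. Group values are mean ± SD with n = 3 lines. Changes are log2 ratios ± SE from edgeR's quasi-likelihood test, and a gene is called at a Benjamini-Hochberg adjusted p below 0.05 over all genes tested. In bulk RNA, fewer cells with a transcript and less transcript per cell cannot be told apart. Library totals were 18417255 to 27257703 counts except in 2 shallow CKI libraries of Smarcb1 KO, from line BS53958 (11684983) and line BS53965 (2884130), and the lowest count of any of the 9 genes in the shallowest library was 111 for Brd9. Results that rest on these 2 lines are repeated without them where that changes a call.

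RefSeq promoter windows on GRCm38.p6, from 250 bases before to 50 after an annotated start, were kept for 7 of the 9 genes. Member windows on 1 chromosome were left out, and none was kept for Arid2 or Ss18. The windows of Arid1a, Arid1b and Pbrm1 are shown because these genes carry most of the differences described here. They are written 5′ to 3′ on the gene's strand, with each CG dinucleotide in capitals. The Arid1a window is chr4:133756720-133757019 (minus strand, 1 of 2 listed for the gene), that of Arid1b is chr17:4994824-4995123 (plus strand) and that of Pbrm1 is chr14:31018888-31019187 (plus strand).
Arid1a: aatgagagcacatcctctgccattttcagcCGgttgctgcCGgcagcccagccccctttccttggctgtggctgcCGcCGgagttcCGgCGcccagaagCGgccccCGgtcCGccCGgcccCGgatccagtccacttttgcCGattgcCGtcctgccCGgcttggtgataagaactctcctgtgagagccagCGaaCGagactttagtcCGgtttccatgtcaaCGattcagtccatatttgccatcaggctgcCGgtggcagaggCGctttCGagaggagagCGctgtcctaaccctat
Arid1b: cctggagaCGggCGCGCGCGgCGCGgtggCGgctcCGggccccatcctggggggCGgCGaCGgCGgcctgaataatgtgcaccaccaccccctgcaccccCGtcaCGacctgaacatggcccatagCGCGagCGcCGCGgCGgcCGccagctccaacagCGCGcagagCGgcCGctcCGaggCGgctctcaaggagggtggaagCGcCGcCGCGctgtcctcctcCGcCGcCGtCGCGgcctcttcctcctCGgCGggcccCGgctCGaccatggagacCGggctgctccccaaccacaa
Pbrm1: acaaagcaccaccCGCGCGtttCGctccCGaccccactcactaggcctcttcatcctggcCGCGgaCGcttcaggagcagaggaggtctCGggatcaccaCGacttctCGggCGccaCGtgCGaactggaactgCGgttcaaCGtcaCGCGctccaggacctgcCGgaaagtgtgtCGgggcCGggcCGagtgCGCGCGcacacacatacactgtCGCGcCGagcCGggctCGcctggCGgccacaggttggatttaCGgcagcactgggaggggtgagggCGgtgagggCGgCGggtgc
All 3 are rich in CG. The Arid1a window holds 22 CG dinucleotides at 61.3% GC, that of Arid1b 42 at 75.3% and that of Pbrm1 35 at 68%. Over all 32817 windows of the table the median was 7 CG dinucleotides at 52.7% GC, and 94.6% of windows held at least 1. These letters are a description of the starts and were not tied to any change in RNA. In the Arid1b window a reading frame without a stop runs from an atg to the end of the window, so a large part of it may be coding. Whether a window overlaps coding sequence was not checked otherwise, so its CG content may not be that of a promoter alone.

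The targeted genes were read first, since they bear on the labels. Smarcb1 RNA was close to 0 in its knockout lines. It stood at 0.0475, 1.16 and 0.172 CPM in the vehicle libraries of lines BS53736, BS53958 and BS53965, which are 1, 24 and 4 counts, against 71.6, 85.1 and 67.9 CPM in the Braf lines. The change was -7.34 ± 0.86 (adjusted p = 7.72e-05). Under CKI it stood at 0.123, 1.4 and 3.27 CPM, from 3, 17 and 11 counts (-5.95 ± 0.83 against Braf, adjusted p = 0.000238). Arid1a RNA was reduced but remained in its knockout lines, at 80.5 ± 13.8 against 132 ± 3.86 CPM in Braf. Arid2 RNA stood at 106, 78.2 and 97.8 CPM in the vehicle libraries labelled Arid2 KO and at 87.9, 108 and 96.5 CPM in Braf. These ranges overlap, and the change of -0.05 ± 0.24 did not pass (adjusted p = 0.968). The table has 1 count per gene over all exons, so a deletion of few exons would not show, and the count does not check this label. These libraries are therefore called labelled Arid2 KO throughout. As for the labelled tissue, 9 thyroid markers summed to 33.1 to 983 CPM in the tumor lines.

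**Figure D1:**
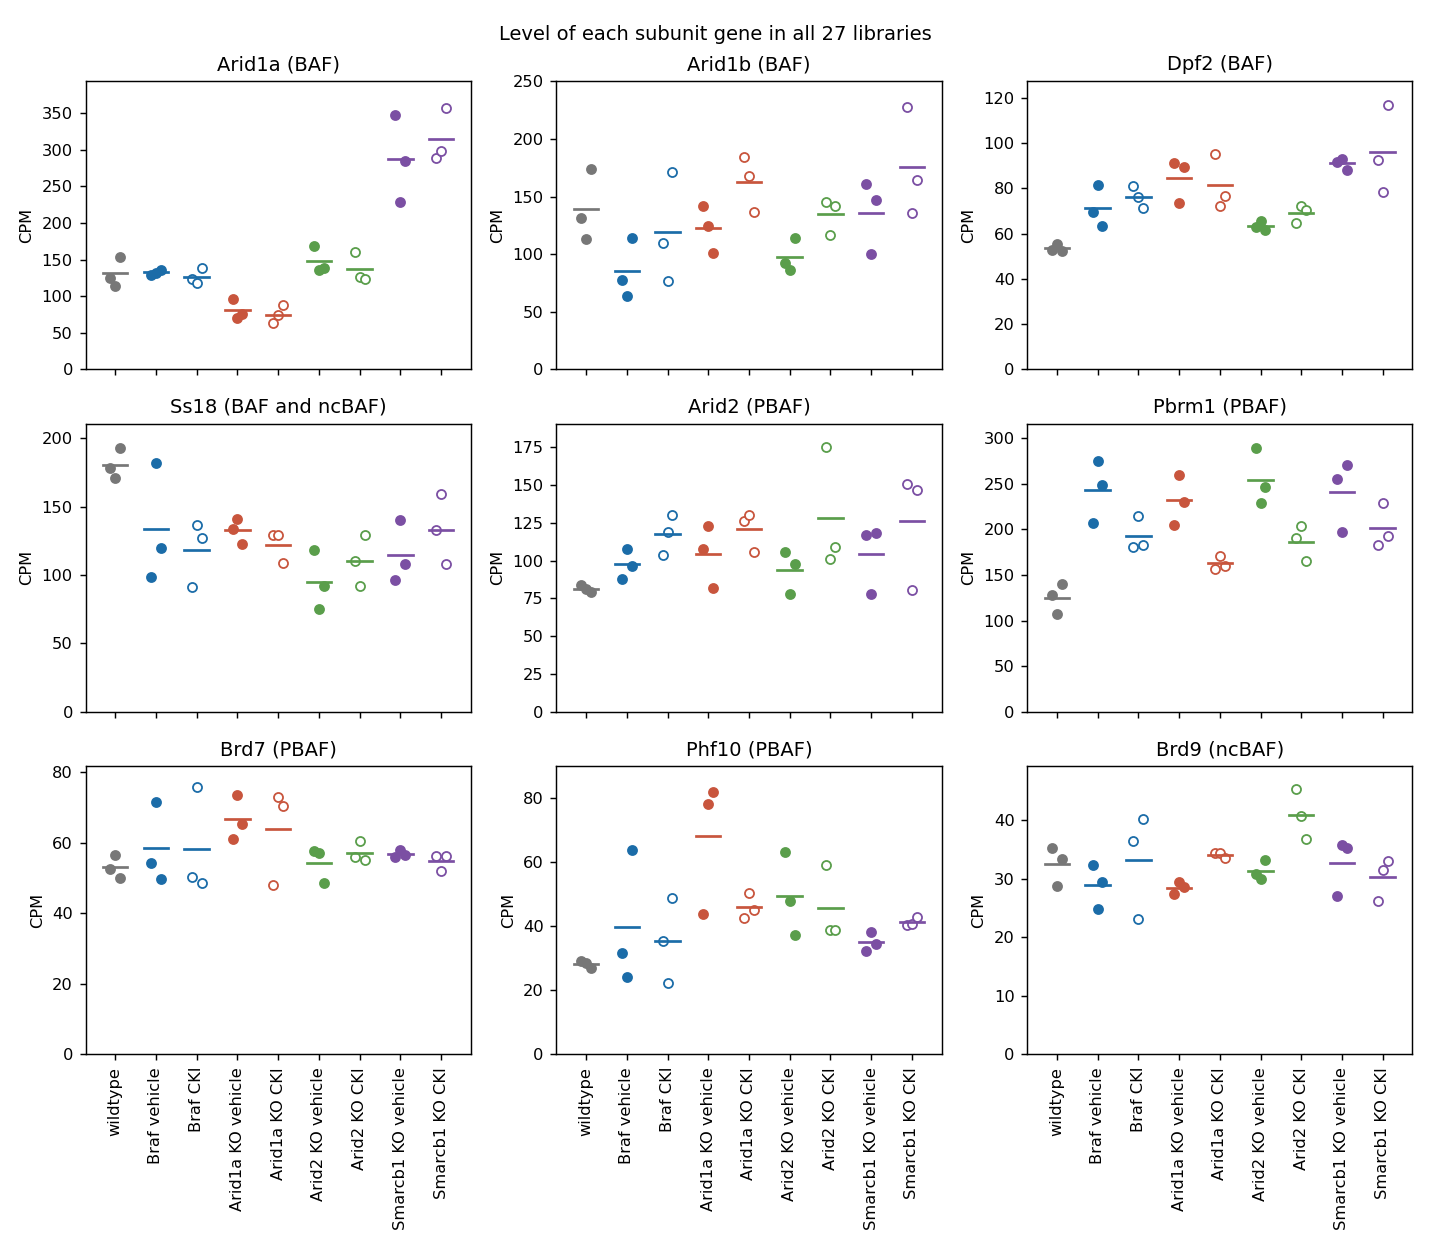
CPM (linear axis) of each of the 9 subunit genes in every library, by group; points are libraries (filled without CKI, open with CKI) and bars the mean of 3. Arid1a is lowest in both Arid1a KO groups (80.5 and 74.6 CPM on average) and highest in both Smarcb1 KO groups (287 and 315), while Pbrm1 is lowest in wildtype (125).

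Per kilobase of merged exons, the scale on which different genes can be set side by side, Pbrm1 was the most abundant of the 9 in the vehicle libraries of Braf, at 27.5 ± 3.88 CPM per kb. Ss18 followed at 14.2 ± 4.61. Arid1a (11.5 ± 0.306), Brd7 (11.2 ± 2.2) and Dpf2 (11 ± 1.41) lay within their spread of each other. Arid2 stood at 9.08 ± 0.939, Phf10 at 8.1 ± 4.28 and Arid1b at 6.75 ± 2.06. Brd9, the ncBAF subunit, was the lowest at 4.15 ± 0.544. Exon lengths come from GENCODE M21, which may differ from the annotation the authors counted on.

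Arid1a, the large DNA-binding subunit of BAF and the gene targeted in Arid1a KO, had the largest called differences of the 9 genes between genotypes. In vehicle it stood at 129, 132 and 136 CPM in the Braf lines, at 96.1, 69.6 and 76 CPM in the Arid1a KO lines, at 169, 136 and 138 CPM in the lines labelled Arid2 KO, and at 348, 229 and 284 CPM in the Smarcb1 KO lines. Every Arid1a KO line lay below every Braf line, and every Smarcb1 KO line lay above all lines of the other genotypes. Ordered by group mean, only 2 steps exceeded the larger SD of the neighbours: from Arid1a KO (80.5 CPM in vehicle) up to Braf under CKI (127), and from the vehicle libraries labelled Arid2 KO (148) up to Smarcb1 KO (287). The wildtype libraries, at 131 ± 20.2 CPM, sat in the middle beside Braf.

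The Arid1a KO lines held 0.61 times the Arid1a RNA of Braf in vehicle, a change of -0.71 ± 0.17 (adjusted p = 0.0325). This targeted gene was the 1 member called of 9, where 2.65% of all 15634 genes were called lower. The call did not hold when any of 4 lines (B47275, B48051, BA47473 or BA49112) was left out, with adjusted p up to 0.186 over 12 alternatives. Under CKI the same lines stood at 62.7, 73.6 and 87.5 CPM against 123, 118 and 139 CPM in Braf. These did not overlap either, but the change of -0.75 ± 0.17 missed the threshold (adjusted p = 0.0523), and 0 members were called where 0.736% of all genes were. Without lines BS53958 and BS53965 it passed, at -0.78 and adjusted p = 0.0475.

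In Smarcb1 KO lines, which lack a core subunit shared by BAF and PBAF, Arid1a was 2.15 times as high as in Braf in vehicle, a rise of 1.10 ± 0.18 (adjusted p = 0.000737). It was again the only 1 of the 9 called, where 6.93% of all genes were called higher. Under CKI the Smarcb1 KO lines stood at 289, 299 and 357 CPM, all above the Braf lines, and the rise was 1.30 ± 0.18 (adjusted p = 0.00019), a fold of 2.47. There 10.1% of all genes were called higher, and of all calls 43.4% were higher, or 53.6% with total library size in place of TMM. The call held in each of 12 alternatives in vehicle and 12 under CKI, with adjusted p up to 0.0409 and 0.0334. The other 8 members were not called in either arm, so 1 of 9 stands beside shares of a similar order over all genes. The comparisons of the 3 knockouts with Braf share the same 3 Braf lines.

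Compared directly with each other, the knockouts separated on Arid1a in each pair. Arid1a is the gene targeted in Arid1a KO, so a difference was built into each pair that holds these lines. Only the pair of Smarcb1 KO and labelled Arid2 KO lines is free of it. Arid1a KO lines were lower than lines labelled Arid2 KO by a log2 difference of -0.88 ± 0.17 (adjusted p = 0.014), where 1.34% of genes were called lower. Without line BA47473 or line BA49112 that difference was not called. Smarcb1 KO lines were higher than Arid1a KO lines by 1.82 ± 0.18 (3.53 times, adjusted p = 1.1e-05), with 5.61% of genes called higher. They were higher than lines labelled Arid2 KO by 0.94 ± 0.17 (adjusted p = 0.00293), with 3.99% of genes called higher. In this last pair Dpf2, a PHD-finger subunit of BAF that binds histone H3, was also called, at 91.7, 93 and 88.3 CPM against 62.9, 65.5 and 61.5 CPM. The groups did not overlap and the difference was 0.51 ± 0.15 (adjusted p = 0.0336), but it was called in only 4 of 12 alternatives (adjusted p from 0.00827 to 0.17), and leaving out any line but BS53965, or BS53958 and BS53965 together, ended it.

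Markers of cell state differed between the same genotypes. The summed level of 8 epithelial markers was 1350 to 7540 CPM in the vehicle libraries of Braf, 316 to 336 in Arid1a KO, 84.7 to 923 in lines labelled Arid2 KO and 0.344 to 262 in Smarcb1 KO. Of these 8, 1 was called lower in Arid1a KO and 1 in Smarcb1 KO. The 8 fibroblast markers summed to 5.46 to 243 CPM in Braf, 1350 to 3720 in Arid1a KO, 21.8 to 67.3 in lines labelled Arid2 KO and 6.6 to 667 in Smarcb1 KO, with 2 called higher in Arid1a KO and 2 lower in Smarcb1 KO. Endothelial markers (5 genes) summed to at most 5.59 CPM in the vehicle libraries of Braf, Arid1a KO and labelled Arid2 KO lines, and to 0.243 to 666 in Smarcb1 KO, where 2 of 4 tested were called higher. Proliferation markers (6 genes) summed to 815 to 1150 CPM in Braf and 1610 to 1920 in Smarcb1 KO, with 1 of 6 called higher. Under CKI, Smarcb1 KO against Braf had 5 of 6 proliferation markers called higher, and 3 of 8 fibroblast, 2 of 6 tested thyroid and 1 of 8 epithelial markers called lower. Muscle markers (4 genes) summed to 0.881 to 159 CPM in the vehicle libraries of labelled Arid2 KO lines, and to at most 2.42 in those of the other genotypes. Under CKI they summed to 1.9 to 1330 CPM in labelled Arid2 KO lines and to at most 6.04 in the others. Against Braf 0 of 2 tested were called in either arm. The part of these differences in the Arid1a levels was not tested.

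**Figure D2:**
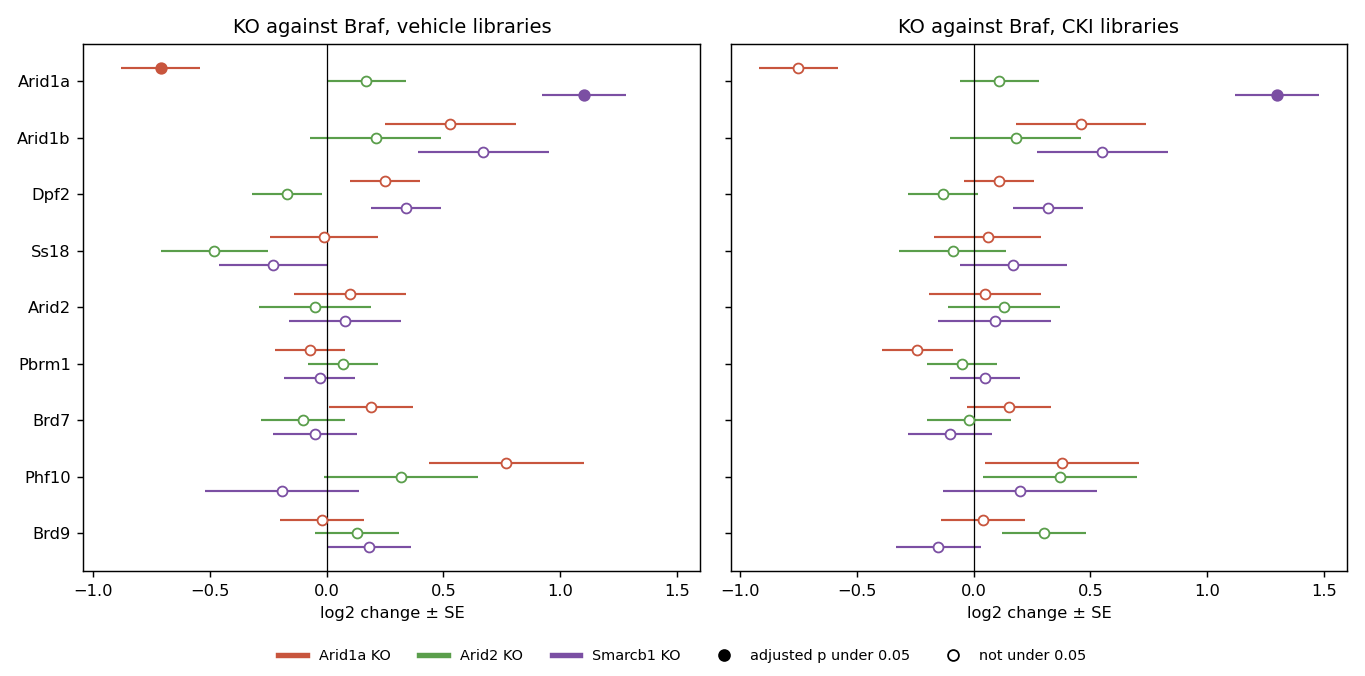
Log2 change ± SE of each subunit gene in the 3 knockouts against Braf, in vehicle (left) and CKI libraries (right). Filled points have an adjusted p under 0.05: Arid1a in Arid1a KO (-0.71, vehicle) and in Smarcb1 KO (1.10 in vehicle and 1.30 under CKI).

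Arid1b, the paralog that takes the place of Arid1a in BAF, was not called in any knockout. It stood at 77.1, 63.9 and 114 CPM in the vehicle libraries of Braf, at 142, 124 and 101 in Arid1a KO, at 92.5, 86.6 and 114 in lines labelled Arid2 KO and at 161, 99.7 and 147 in Smarcb1 KO. All the ranges overlapped that of Braf, whose line B52482 was the highest of its group. The change in Arid1a KO was 0.53 ± 0.28 (adjusted p = 0.307) and that in Smarcb1 KO 0.67 ± 0.28 (adjusted p = 0.0993). Without B52482 Arid1b was called higher in Smarcb1 KO, at 0.92 in vehicle (adjusted p = 0.0265) and 0.89 under CKI (adjusted p = 0.0294). No other of the 12 alternatives called it in either arm.

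The balance of the paralogs was read as the ratio of Arid1a to Arid1b within each library, which does not depend on scaling. In vehicle it was 1.67, 2.07 and 1.2 in Braf lines B47275, B48051 and B52482, and 0.676, 0.559 and 0.751 in the Arid1a KO lines. Arid1a RNA thus exceeded Arid1b RNA in every Braf line and was below it in every Arid1a KO line. Since Arid1a is the gene targeted in Arid1a KO, a lower ratio in these lines was built in. Arid1a itself changed there by -0.71 ± 0.17, while the change of Arid1b, 0.53 ± 0.28, was not called. On the log2 scale the means were 0.68 ± 0.40 and -0.61 ± 0.22, a difference of -1.29. The exact two-sided permutation test gave p = 0.1, the smallest that 3 lines against 3 allow, and 0.6 after adjustment over 6 ratio comparisons. The ratio was 1.83, 1.58 and 1.21 in lines labelled Arid2 KO and 2.16, 2.3 and 1.94 in Smarcb1 KO. Differences from Braf were -0.08 (exact p = 0.8) and 0.40 (exact p = 0.2), and both ranges overlapped that of Braf. In wildtype libraries the log2 ratio was -0.07 ± 0.10.

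**Figure D3:**
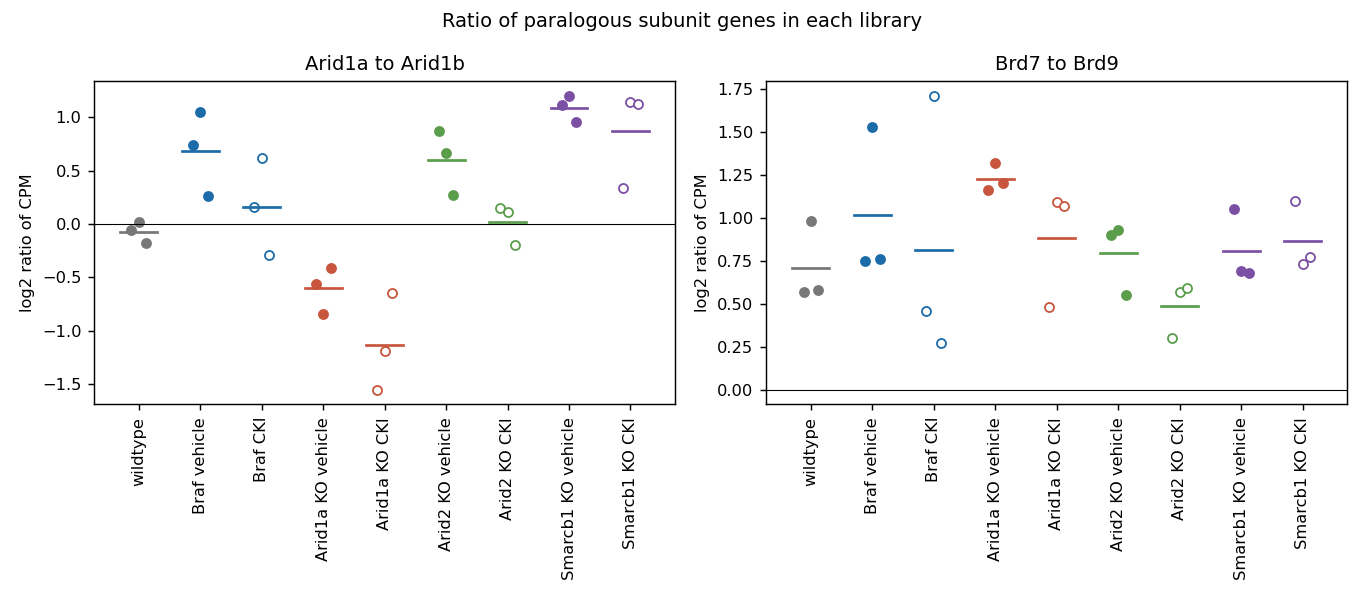
Log2 ratio of Arid1a to Arid1b and of Brd7 to Brd9 in each library, by group (filled without CKI, open with CKI), with bars at the group mean. The Arid1a to Arid1b ratio is below 0 in all Arid1a KO libraries (means -0.61 in vehicle and -1.13 under CKI), where Arid1a is the targeted gene.

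The other BAF subunits were not called in any knockout against Braf. Dpf2 was at 71.5 ± 9.17 CPM in Braf and 91 ± 2.44 in Smarcb1 KO in vehicle, a change of 0.34 ± 0.15 that was not called (adjusted p = 0.11) although the lines did not overlap. Ss18, the subunit fused in synovial sarcoma, varied within Braf itself, at 98.4, 182 and 120 CPM. Its largest difference from Braf in vehicle was -0.48 ± 0.23 in lines labelled Arid2 KO (adjusted p = 0.414), with overlapping ranges.

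The PBAF subunits were not called in any comparison between genotypes of the tumor lines. Arid2, the ARID subunit of PBAF, had means from 94 ± 14.3 to 105 ± 21.1 CPM over the 4 genotypes in vehicle. Pbrm1, a subunit with several bromodomains that bind acetylated histones, had means from 232 ± 27.3 to 254 ± 30.7 CPM. Brd7, a bromodomain subunit, had means from 54.4 ± 5.05 to 66.7 ± 6.27 CPM. No change of these 3 genes from Braf in vehicle exceeded 0.19 in size. Every Arid1a KO line lay above all lines labelled Arid2 KO and all Smarcb1 KO lines in Brd7, at 61.2 to 73.5 against 48.5 to 57.6 and 56 to 57.9 CPM. Neither the difference of Arid1a KO from lines labelled Arid2 KO, 0.29 ± 0.18 (adjusted p = 0.459), nor that of Smarcb1 KO from Arid1a KO, -0.24 ± 0.18 (adjusted p = 0.404), was called. Between Arid1a KO and labelled Arid2 KO lines, Dpf2 (0.41 ± 0.15, adjusted p = 0.142), Ss18 (0.47 ± 0.23, adjusted p = 0.323) and Brd9 did not overlap either and were not called. The share of all genes without overlap was not computed.

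Phf10, a PHD-finger subunit of PBAF, varied widely between lines of a genotype. It stood at 31.6, 24.1 and 63.7 CPM in Braf, at 43.8, 78.2 and 81.8 in Arid1a KO, at 63, 47.9 and 37.2 in lines labelled Arid2 KO and at 32.3, 38.1 and 34.4 in Smarcb1 KO, all in vehicle. Braf line B52482 and Arid1a KO line BA45198 were far from the other 2 lines of their groups. The change in Arid1a KO was 0.77 ± 0.33 (adjusted p = 0.205), and without B52482 it was 1.29 and called (adjusted p = 0.0153). No other of the 12 alternatives called this change. Smarcb1 KO lines lay below all Arid1a KO lines, with a difference of -0.97 ± 0.33 (adjusted p = 0.0613). DESeq2 called it, at -0.99 and adjusted p = 0.0296, as did the fit without BA45198, at -1.22 and adjusted p = 0.0485. The other alternatives did not.

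Brd9, the bromodomain subunit of ncBAF, was at similar levels in the 4 genotypes. Its vehicle levels were 28.8 ± 3.74 CPM in Braf, 28.4 ± 1.01 in Arid1a KO, 31.3 ± 1.74 in lines labelled Arid2 KO and 32.7 ± 4.87 in Smarcb1 KO. No difference between genotypes was called, although Arid1a KO lines lay below all lines labelled Arid2 KO (-0.14 ± 0.18, adjusted p = 0.784). The ratio of Brd7 to its relative Brd9 differed from Braf by 0.21, -0.22 and -0.21 on the log2 scale in Arid1a KO, labelled Arid2 KO and Smarcb1 KO lines (exact p = 0.4, 0.6 and 0.5, adjusted 0.72 for each). All 3 ranges overlapped that of Braf, whose line B48051 had the highest ratio, 2.88.

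In lines labelled Arid2 KO, 0 of the 9 genes were called against Braf in vehicle, where 0.0512% of all genes were (8 genes), and 0 under CKI, where 0.064% were (10 genes). At an unadjusted p under 0.05, 0 members passed in either arm, against 1940 and 1643 of all genes. DESeq2 also called 0 members in both arms, with 606 and 422 genes called in all.

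Over the whole complex, the list of other SWI/SNF subunits had 22 entries, of which 21 were found and 17 tested in the tumor lines. In Smarcb1 KO against Braf in vehicle, 4 rose and 1 fell, where 6.93% of all genes were called higher and 11.2% lower. Smarca4, an ATPase of the complex, stood at 509 ± 14.2 against 297 ± 42.6 CPM (0.77 ± 0.13, adjusted p = 0.00141), and Actl6a, an actin-related subunit, rose by 0.85 ± 0.18 (adjusted p = 0.00488). The gene that fell was Smarcb1 itself. Under CKI, where 10.1% were called higher and 13.1% lower, 3 rose and 1 fell, among them Smarca4 by 0.80 ± 0.13 (adjusted p = 0.00106) and Dpf1, a relative of Dpf2, by 2.47 ± 0.74 (adjusted p = 0.024). The median change of the 17 was 0.22 in vehicle and -0.03 under CKI, of the 9 members 0.08 and 0.17, and of all genes -0.02 and -0.05. None of the 17 was called in Arid1a KO or in labelled Arid2 KO lines against Braf in either arm. Few of all 15634 genes were called there: 567 in vehicle and 115 under CKI in Arid1a KO, and 8 and 10 in labelled Arid2 KO lines. Against Arid1a KO, Smarcb1 KO had 2 higher, Smarca4 (0.68 ± 0.13) and Actb (0.75 ± 0.24), and 1 lower. Against lines labelled Arid2 KO it had 2 higher, Actl6a (0.80 ± 0.18) and Smarca4 (0.59 ± 0.13), and 1 lower, which in both cases was Smarcb1. In these comparisons 5.61% and 3.99% of all genes were called higher, and 8.19% and 6.24% lower.

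The CKI and vehicle libraries were compared to see whether these genes move under the drug, and each line served in both arms. Whether the vehicle cultures also received bovine TSH is not settled. If they did not, an effect of TSH cannot be told apart from that of CKI. Arid1b was higher under CKI in 12 of 12 lines and Arid2 in 12 of 12, while Pbrm1 was lower in 11 of 12. The share of all genes that moved 1 way in as many lines was not computed. Arid1b went from 77.1 to 110, 63.9 to 76.5 and 114 to 171 CPM in the Braf lines, from 142 to 184, 124 to 168 and 101 to 137 in Arid1a KO, from 92.5 to 145, 86.6 to 117 and 114 to 142 in lines labelled Arid2 KO, and from 161 to 228, 99.7 to 136 and 147 to 164 in Smarcb1 KO. The log2 change within a line ran from 0.16 to 0.64 with a median of 0.44. No line went the other way.

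Pbrm1 went from 207 to 181, 275 to 215 and 249 to 183 CPM in Braf, from 205 to 157, 260 to 171 and 230 to 160 in Arid1a KO, from 289 to 190, 229 to 204 and 246 to 165 in lines labelled Arid2 KO, and from 255 to 183, 197 to 229 and 271 to 193 in Smarcb1 KO. The exception was Smarcb1 KO line BS53958, 1 of the 2 lines with a shallow CKI library. Arid2 was higher by 0.05 to 0.72 on the log2 scale within lines, with a median of 0.28. It went from 106 to 175 CPM in line AB51189, the largest step, and from 77.7 to 80.6 in BS53958, the smallest.

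**Figure D4:**
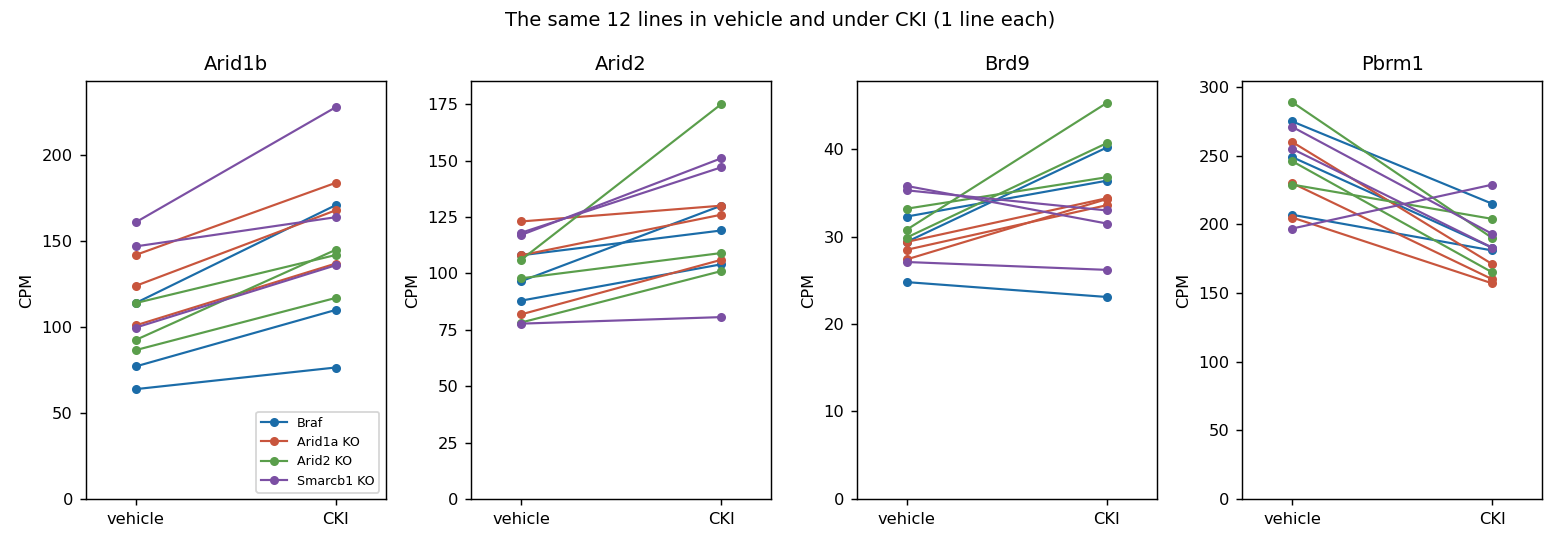
CPM (linear axis) of Arid1b, Arid2, Brd9 and Pbrm1 in the vehicle and CKI library of the same tumor line, joined and coloured by genotype. Arid1b and Arid2 are higher under CKI in 12 of 12 lines and Pbrm1 is lower in 11 of 12, counts without a share over all genes.

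Tested genotype by genotype without the pairing, 1 call was made. In Arid1a KO, Pbrm1 fell by 0.50 ± 0.15 on the log2 scale (adjusted p = 0.036), its lines not overlapping, where 6.84% of genes were called lower. That call did not hold when any 1 of the 3 Arid1a KO lines was left out (adjusted p up to 0.204). No member was called in Braf, where 0% of genes were, in lines labelled Arid2 KO (0.141%) or in Smarcb1 KO (0.032%). At an unadjusted p under 0.05 there were 1, 2 and 0 members in these 3 genotypes, of 1744, 2130 and 1334 genes. DESeq2 called 0 members in each, where 152, 342 and 199 of all genes were called higher and 149, 228 and 106 lower.

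With the line as a replicate block, which uses the pairing, Arid1a KO had 3 calls. Arid1b rose by 0.43 ± 0.11 (adjusted p = 0.0159), where 17% of genes were called higher. Pbrm1 fell by 0.49 ± 0.15 (adjusted p = 0.0289) and Phf10 fell by 0.50 ± 0.16 (adjusted p = 0.0381), where 15.3% were called lower. Lines labelled Arid2 KO had 1 call, Arid1b at 0.47 ± 0.11 (adjusted p = 0.0397), where 3.52% were called higher. Braf and Smarcb1 KO had 0, where 2.48% and 1.06% of all genes were called in either direction. Arid1b was at 0.46 ± 0.11 (adjusted p = 0.0615) and 0.38 ± 0.11 (adjusted p = 0.141) there.

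No genotype differed from Braf in its CKI response by a call. For the difference between a knockout's response and that of Braf, 0 members were called in Arid1a KO, labelled Arid2 KO and Smarcb1 KO lines, and 0% of all genes were in each. At an unadjusted p under 0.05 there were 801, 124 and 659 genes and 0 members, and DESeq2 called 38, 7 and 31 genes and 0 members. For Arid1b the differences were -0.07 ± 0.39, -0.04 ± 0.39 and -0.12 ± 0.39. With the replicate block they were -0.03 ± 0.16, 0.01 ± 0.16 and -0.08 ± 0.16. The blocked fit also called 0 members, where 0.147%, 0% and 0.032% of all genes were called.

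The mean CKI response over the 4 genotypes, blocked by line, was tested after the values within lines had been seen. Arid1b was higher by 0.43 ± 0.06 (1.35 times, adjusted p = 0.000329), Arid2 by 0.30 ± 0.06 (1.23 times, adjusted p = 0.00454) and Brd9 by 0.19 ± 0.07 (adjusted p = 0.044), so 3 of 9 rose where 21.9% of all genes were called higher. Pbrm1 fell by 0.38 ± 0.07 on the log2 scale (0.77 times, adjusted p = 0.00288), 1 of 9 where 21% were called lower. Many genes differed between the arms, and these member counts are not far from the background. The calls of Arid1b and Pbrm1 held in each of 17 alternatives and that of Arid2 in 16, lost only in the fit without the block (adjusted p = 0.0658). Brd9 held in 4 of 17. It was lost without the lines of the shallow libraries, BS53958 and BS53965 (0.19, adjusted p = 0.129), and without any single line but AB55694 or B48051 (adjusted p up to 0.136). It was also lost with no filter (adjusted p = 0.162) and without the block (adjusted p = 0.12). Arid1a, Dpf2, Ss18, Brd7 and Phf10 had mean responses between -0.12 and 0.06 and were not called.

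Within BAF, Arid1a was higher under CKI in 5 of 12 lines, with log2 changes from -0.62 to 0.39, beside 12 of 12 for Arid1b. The log2 ratio of Arid1a to Arid1b went from 0.68 ± 0.40 to 0.16 ± 0.46 in Braf, from -0.61 ± 0.22 to -1.13 ± 0.46 in Arid1a KO, from 0.60 ± 0.30 to 0.02 ± 0.19 in lines labelled Arid2 KO and from 1.09 ± 0.13 to 0.87 ± 0.46 in Smarcb1 KO. The group mean was lower under CKI in all 4 genotypes, and this change of the ratio was not tested. Dpf2 was higher in 8 of 12 lines, Ss18 in 6, Brd7 in 5, Phf10 in 5 and Brd9 in 8.

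Brd9 was higher under CKI in each Arid1a KO line, from 27.4 to 34.3, 29.4 to 34.4 and 28.5 to 33.6 CPM, and in each line labelled Arid2 KO, from 30.8 to 45.3, 29.9 to 40.7 and 33.2 to 36.8 CPM. It was lower in each Smarcb1 KO line, from 27.1 to 26.2, 35.8 to 31.5 and 35.3 to 33 CPM. The arms did not overlap in the first 2 genotypes and overlapped in Smarcb1 KO. None of these changes was called within its genotype.

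Proliferation and differentiation markers moved in the same libraries. In the mean CKI response all 6 proliferation markers were called lower, 4 of 6 tested thyroid markers and 6 of 8 fibroblast markers higher and 2 of 8 epithelial markers lower. Proliferation markers summed to 815 to 1150 CPM in the vehicle and 315 to 451 CPM in the CKI libraries of Braf. In Smarcb1 KO they summed to 1610 to 1920 and 610 to 1960 CPM. Whether this change of growth state has a part in the responses of Arid1b, Arid2 and Pbrm1 was not tested.

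Other subunits also differed between the CKI and vehicle libraries. In Arid1a KO, 2 of 17 rose and 2 fell, where 7.08% of all genes were called higher and 6.84% lower. Smarca2, the alternative ATPase, went from 35.6 ± 9.02 to 146 ± 4.53 CPM (2.04 ± 0.49, adjusted p = 0.0129), Actl6a fell by 0.64 ± 0.18 on the log2 scale (adjusted p = 0.0269) and Smarcc1, a scaffold subunit, fell by 0.64 ± 0.20 (adjusted p = 0.0377). None was called in the other 3 genotypes without the pairing, where 0% of all genes were in Braf, 0.141% in labelled Arid2 KO lines and 0.032% in Smarcb1 KO. With the replicate block Smarca2 was called in lines labelled Arid2 KO too (1.06 ± 0.27, adjusted p = 0.0447), where 3.52% of all genes were called higher. In the mean response 4 rose and 4 fell of 17, where 21.9% of all genes were called higher and 21% lower. These counts are near the shares over all genes. The smallest adjusted p were those of Smarca2 (1.11 ± 0.13, adjusted p = 0.000217), Smarcd3 (0.74 ± 0.16, adjusted p = 0.00485) and Bcl7c (-0.51 ± 0.12, adjusted p = 0.00677).

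Braf lines in vehicle were also compared with the libraries marked wildtype. Pbrm1 was at 207, 275 and 249 CPM in Braf and at 128, 107 and 140 CPM in wildtype, without overlap, a rise of 0.96 ± 0.15 (1.95 times, adjusted p = 6.6e-05). Dpf2 was at 69.5, 81.5 and 63.5 against 52.9, 55.5 and 52.3 CPM, also without overlap, and rose by 0.42 ± 0.14 (adjusted p = 0.0188). These were 2 of 9 members where 23.7% of all 16821 genes were called higher. Arid1b, at 77.1, 63.9 and 114 against 131, 113 and 174 CPM, fell by 0.71 ± 0.28 on the log2 scale with overlapping ranges (adjusted p = 0.0411), 1 of 9 where 22.8% were called lower. The call of Pbrm1 held in 11 of 11 alternatives and those of Dpf2 and Arid1b in 4 of 11 each. Dpf2 was not called with RLE size factors (0.25, adjusted p = 0.152) or with DESeq2 (0.25, adjusted p = 0.133). Arid1b was not called with total library size (-0.55, adjusted p = 0.0856) or with no filter on low counts (-0.7, adjusted p = 0.0672). With the compared groups alone neither was called (adjusted p = 0.0702 for Dpf2 and 0.0647 for Arid1b). Dpf2 was also lost without any 1 of the 3 wildtype libraries or without line B48051 (adjusted p from 0.0606 to 0.111), and Arid1b without either of 2 wildtype libraries, whose Arid1b levels were 131 and 174 CPM, or without line B47275 or B48051 (adjusted p up to 0.144).

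Ss18 had its highest group mean in wildtype, at 178, 171 and 193 CPM, and the change in Braf of -0.44 ± 0.22 was not called (adjusted p = 0.111). It was called lower with size factors of the RLE type (-0.60, adjusted p = 0.0311), with DESeq2 (adjusted p = 0.0244) and without line B48051 (-0.73, adjusted p = 0.0121). Phf10 was 26.9 to 29 CPM in wildtype and was called higher in Braf only without line B48051 (0.75, adjusted p = 0.0417). Arid1a, Arid2, Brd7 and Brd9 had log2 differences of 0.01 ± 0.17, 0.26 ± 0.23, 0.14 ± 0.17 and -0.17 ± 0.17 and were not called. Of 20 other subunits tested, 8 rose and 5 fell, where 23.7% of all genes were called higher and 22.8% lower. The smallest adjusted p were those of Smarce1 (1.44 ± 0.14, adjusted p = 3.35e-07), Smarcc1 (1.97 ± 0.20, adjusted p = 8.5e-07) and Smarca4 (1.32 ± 0.14, adjusted p = 8.92e-07).

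The wildtype libraries differ from the lines in cell content, and their source label, a tumor cell line, goes against their markers. Their 9 thyroid markers summed to 230000 to 349000 CPM against 92.8 to 253 in Braf. Leukocyte markers (7 genes) summed to 269 to 432 against 3.18 to 4.59, endothelial markers to 448 to 667 against 0.412 to 3.15, muscle markers (4 genes) to 1150 to 2530 against 0.98 to 2.42 and adipocyte markers (3 genes) to 505 to 2110 against at most 0.155 CPM. Proliferation markers summed to 52.9 to 60.4 CPM in wildtype. The part of these differences in the levels of Pbrm1, Dpf2 and Arid1b was not tested.

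For 4 of the genes the most similar patterns over the 12 tumor lines were looked up, using the mean log2 CPM of a line's 2 libraries and 10166 genes. They are given as a description, since lines of a genotype share whatever the knockout moves. Arid1a was most like Hsdl1 (Pearson r = 0.952), Map3k6 (0.938) and E430025E21Rik (0.934). Arid1b was most like Nktr (0.921), Chd2 (0.918) and Id3 (0.912). Arid2 was most like Arl5b (0.874), Rsbn1 (0.853) and Rrnad1 (0.845), and Brd9 like 2900010M23Rik (0.919), Pde6d (0.888) and B3gnt1 (0.874).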

How the data were processed

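Per the labels' protocols, TRIzol was used for RNA and a TruSeq kit for the libraries. The authors deposited raw counts per gene symbol, 1 column per library. The submitters' processing notes list STAR 2.4, HTSeq 0.6.1, DESeq2 and genome build mm9, with no step assigned to a tool. Which annotation, strand option and filters applied is not given in the sources used here, and symbols that share reads with overlapping genes could not be separated.

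From these counts, edgeR 4.0.16 (R 4.3.3, limma 3.58.1) was run with filterByExpr by group, TMM scaling and the quasi-likelihood F test. The 24 tumor line libraries shared 1 fit (15634 genes). Braf vehicle was set against wildtype in a fit of all 27 (16821 genes). Each SE is approximate, being the log2 change over the root of its F value. CPM uses 1 TMM scaling over all 27 libraries. DESeq2 1.42.0 was an alternative, as were RLE size factors, total library size, no filter, the compared groups alone, each line left out, and lines BS53958 and BS53965 left out. The scripts were tested on simulated data. No 2 libraries of a group agreed within sampling noise.

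Vehicle and CKI libraries are paired because they come from the same line. After group means were removed, paired libraries correlated across genes at 0.259 to 0.773 in 12 of 12 lines. Comparisons of CKI with vehicle were fitted without the pairing, and the fit with line as a block (8 residual degrees of freedom) is given where it changes a call.

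The 9 genes, the lists and the tests were chosen with earlier results of these data known. All 9 genes and Smarcb1 are named, with the called subunits of the smallest 3 adjusted p per comparison and the 3 genes most like Arid1a, Arid1b, Arid2 and Brd9 (average log2 CPM of at least 3). Lists of C cell and parathyroid markers were read too. The C cell markers (2 genes) summed to 1970 to 3680 CPM in wildtype and to at most 2.19 CPM in any tumor line. The parathyroid markers (2 genes) summed to 37.1 to 1950 CPM in wildtype and to at most 0.103 CPM in any tumor line.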

Additional observations from a re-analysis of the deposited data

Results flagged for a closer look

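Each of the 9 genes was checked in every pair of the 4 genotypes. In 4 instances every line of a knockout moved 1 way under CKI and every line of another knockout moved the opposite way. The share of all genes with such opposite moves was not computed, so the count has no background to be read against. The difference in response was then tested with edgeR's interaction contrast, chosen after the lines had been seen, and none passed. For Brd9 the mean log2 difference within lines was 0.26 in Arid1a KO and -0.11 in Smarcb1 KO, a fitted difference of -0.39 ± 0.26 (adjusted p = 0.597, and 0.279 with the replicate block). Against lines labelled Arid2 KO, whose mean was 0.39, the difference of Smarcb1 KO for Brd9 was -0.50 ± 0.26 (adjusted p = 0.928, and 0.345 with the block). For Phf10 it was -0.51 in Arid1a KO and 0.24 in Smarcb1 KO, a difference of 0.79 ± 0.47 (adjusted p = 0.543). With the block it was 0.75, with unadjusted p = 0.00821 and adjusted p = 0.0976. For Ss18 it was -0.12 in Arid1a KO and 0.22 in Smarcb1 KO, a difference of 0.32 ± 0.33 (adjusted p = 0.774, and 0.387 with the block). Some steps were small: the Ss18 difference was 0.01 in Smarcb1 KO line BS53965, and the Phf10 difference was -0.04 in Arid1a KO line BA45198. Of the 3 Smarcb1 KO lines, 2 have a shallow CKI library.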

How the results depend on the processing

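No called result changed direction under any alternative run. The rise of Arid1a in Smarcb1 KO against Braf and against Arid1a KO, that of Pbrm1 in Braf against wildtype, and the mean CKI responses of Arid1b and Pbrm1 held in each. The number of members called moved elsewhere, and the cause was not tested. For Arid1a KO against Braf under CKI it went from 0 to 1 with total library size, with DESeq2 and without lines BS53958 and BS53965. In vehicle it went from 1 to 0 with no filter and with the compared groups alone, and ran from 0 to 2 with a line left out. For CKI in Arid1a KO it went from 1 to 0 with total library size and with no filter, to 3 with the replicate block, and ran from 0 to 1 with a line left out. In lines labelled Arid2 KO the block moved it from 0 to 1. For Smarcb1 KO against labelled Arid2 KO lines it went from 2 to 1 with no filter and without BS53958 and BS53965, to 0 with the compared groups alone, and ran from 1 to 2 with a line left out. For Smarcb1 KO against Arid1a KO it was 2 with DESeq2 and 1 to 2 with a line left out. For Arid1a KO against labelled Arid2 KO lines it was 0 with the compared groups alone and 0 to 1 with a line left out. For Braf against wildtype it went from 3 to 2 with total library size and with no filter, was 1 with the compared groups alone and 1 to 3 with a library left out, and for Smarcb1 KO against Braf it was 1 to 2 in both arms. The mean CKI response had 2 calls with no replicate block. The block changed no other member call.

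Counts over all genes moved more: Arid1a KO against Braf in vehicle had 567 calls (24 to 1556), Smarcb1 KO 2837 (785 to 3921) and labelled Arid2 KO lines 8 (0 to 606), and under CKI 115 (3 to 953), 3618 (521 to 4831) and 10 (0 to 422). CKI against vehicle had 2177 calls in Arid1a KO (202 to 5053), 22 in labelled Arid2 KO lines (0 to 981), 5 in Smarcb1 KO (0 to 305) and 0 in Braf (0 to 388). The knockouts against each other had 401 (75 to 1220), 2157 (749 to 3210) and 1600 (625 to 2736). The share of calls that were higher moved by over 10 points for Smarcb1 KO against Braf under CKI, from 43.4% to 53.6% with total library size, for CKI in labelled Arid2 KO lines, from 68.2% to 78.9% with total library size, and for these lines against Braf under CKI, from 30% to 0% with RLE factors or total library size and to 18.5% with DESeq2. For CKI in Smarcb1 KO it went from 80% to 65.2% with DESeq2.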
